A study of Mus musculus with 2 samples.

Results

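Apln-type endothelial cells were followed here in single-cell RNA sequencing of mouse plantaris muscle, 4 days after tenotomy. A cell was counted as Apln-type when it lay in a gate of blood endothelial cells and carried at least 2 unique molecular identifiers (UMIs, one per captured transcript) of Apln, Esm1, Pgf and Angpt2 summed. This gave 91 cells in the tenotomy library and 71 cells in the sham library, 162 of the 18975 cells that passed the cell limits. The gate asked for at least 5 UMIs of Pecam1, Cdh5, Cldn5, Kdr and Egfl7 summed and for 0 UMIs of Ptprc and of Pdgfra. It also asked for fewer than 2 UMIs of Prox1 and Mmrn1 (lymphatic), fewer than 2 of Gja5, Sema3g, Bmx, Hey1 and Stc1 (arterial) and fewer than 3 of Selp, Sele, Ackr1 and Vwf (venous or activated). It held 1195 tenotomy and 2828 sham cells. The cells set against the Apln-type cells are the 1000 tenotomy and 2477 sham gate cells with 0 UMIs of the 4 genes, called set-negative cells below.

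Both groups came from the same 5 male mice of 12 weeks, of the strain given as C57BL/6 or C57BL/6J, with no transgene named. The plantaris of one side was tenotomized, and the plantaris of the opposite side was the sham control, so the control is a muscle of an operated animal. The 5 muscles of a group were pooled after 4 days, digested with collagenase type II, and living Calcein AM+ PI- cells were sorted into 1 10x Chromium 3' library per group. With 1 library per group no test across samples is possible, and treatment, pool and library cannot be told apart.

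New capillaries grow as sprouts led by a tip cell, which follows vascular endothelial growth factor (VEGF) and is trailed by stalk cells. Tip cells of the mouse retina are known for secreting apelin, endocan, placental growth factor and angiopoietin 2, the products of Apln, Esm1, Pgf and Angpt2. Resting capillary endothelium of muscle is known instead for passing fatty acids to the fibres and for transcription factors kept up by blood flow.

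The tenotomy library held 94556283 UMIs in 11950 barcodes and the sham library 47781353 UMIs in 8463 barcodes. Apln-type cells had a median of 6046 UMIs in the tenotomy and 4851 in the sham library, above the set-negative cells with 2862.5 and 3436. A deeper cell passes a limit of 2 UMIs more readily, so shares are also given at 2000 UMIs per cell. Levels are given as CPM, the UMIs of a gene summed over a group of cells per 1000000 UMIs of that group. A gene was measured with at least 50 CPM in the higher group and 25 UMIs over both; for genes of the lists below, the 25 UMIs alone were asked. Brackets hold 95% intervals, which cover counting error only. Of 33 barcodes present in both libraries, 1 lay in the gate and 0 among the Apln-type cells.

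The Apln-type cells were chosen by the UMI counts of the 4 genes, so these values are given as a description. Apln, which encodes apelin, the peptide ligand of the receptor Aplnr (ENSMUSG00000037010, chromosome X, 48025146 to 48034853, minus strand, GRCm38), had 437 UMIs in 54 of 91 tenotomy cells and 24 UMIs in 7 of 71 sham cells. Of the 24 sham UMIs, 13 lay in a single cell. The levels were 583 CPM (530 to 641) in tenotomy and 59.9 CPM (38.4 to 89.2) in sham Apln-type cells. Apln was therefore the gene with the most UMIs of the 4 in the tenotomy cells and the fewest in the sham cells.

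Pgf, which encodes placental growth factor, a ligand of the VEGF receptor Flt1 (ENSMUSG00000004791, chromosome 12, 85166635 to 85177790, minus strand), had 331 UMIs in 39 tenotomy cells and 96 UMIs in 11 sham cells. Its level was 442 CPM (396 to 492) in tenotomy and 239.7 CPM (194 to 293) in sham Apln-type cells. Angpt2, which encodes angiopoietin 2, a ligand that opposes angiopoietin 1 at the receptor Tek (ENSMUSG00000031465, chromosome 8, 18690263 to 18741562, minus strand), ran the other way. It had 112 UMIs in 45 tenotomy cells and 108 UMIs in 53 sham cells, or 149.5 CPM (123 to 179.9) and 269.6 CPM (221 to 326). Esm1, which encodes endocan, a secreted proteoglycan (ENSMUSG00000042379, chromosome 13, 113209659 to 113218098, plus strand), had 21 UMIs in 7 tenotomy cells and 56 UMIs in 23 sham cells, or 28.0 CPM (17.4 to 42.8) and 139.8 CPM (106 to 182). The label Apln-type thus describes most of the tenotomy cells, whereas the sham cells that meet the same rule are mainly cells with Angpt2 or Esm1.

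**Figure D1:**
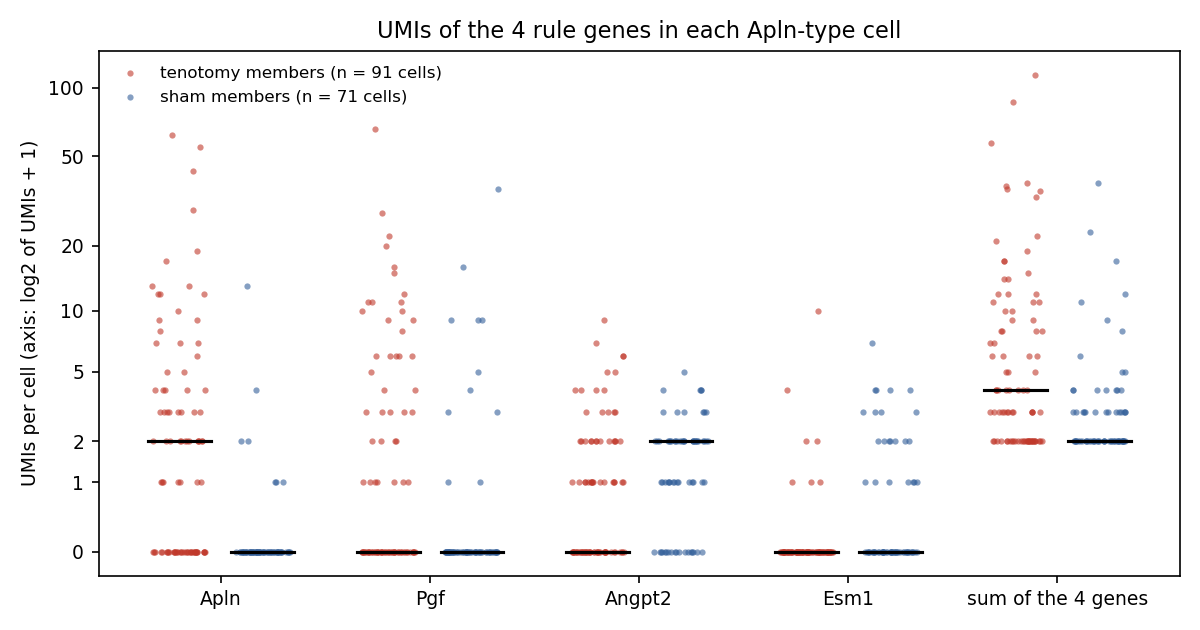
UMIs of Apln, Pgf, Angpt2, Esm1 and their sum in each Apln-type cell (1 point per cell; vertical axis log2 of UMIs + 1; red tenotomy, blue sham; black bar the median). The sum has a median of 4 UMIs and a highest value of 114 in tenotomy cells, and a median of 2 and a highest value of 38 in sham cells; the tenotomy Apln points reach 62 UMIs, while 64 of 71 sham cells lie at 0.

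Many cells lay at the limit, more of them in sham. Exactly 2 UMIs of the 4 genes were found in 31 of 91 tenotomy and 40 of 71 sham cells, and 104 tenotomy and 280 sham gate cells with 1 UMI stayed just outside. At least 5 UMIs were found in 39 tenotomy and 10 sham cells, and at least 10 in 24 and 5. At least 2 of the 4 genes were seen in 41 tenotomy and 22 sham cells. Angpt2 alone was seen in 10 tenotomy and 33 sham cells, and Apln alone in 23 tenotomy cells. Apln stood beside Angpt2 in 25 and beside Pgf in 17 tenotomy cells. Esm1 and Pgf were seen together in 0 cells of either library.

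Apln-type cells made up 7.62% (6.18 to 9.27) of the tenotomy gate and 2.51% (1.97 to 3.16) of the sham gate (Clopper-Pearson), a ratio of 3.03 (2.24 to 4.11). When every cell of at least 2000 UMIs was thinned to 2000, which left out 290 tenotomy and 405 sham gate cells, the expected shares were 4.59% and 0.963%, a ratio of 4.76. The genes did not move together. Apln was seen in 6.44% of tenotomy and 0.778% of sham gate cells, a ratio of 8.28 (5.18 to 13.2), or 12.7 at the fixed depth. Pgf was seen in 5.02% of tenotomy and 1.13% of sham gate cells, a ratio of 4.44 (2.90 to 6.78). For Angpt2 the shares were 8.20% in tenotomy and 9.05% in sham, a ratio of 0.906 (0.725 to 1.13). Esm1 had the lower share in tenotomy, 1.17% against 2.26% in sham, a ratio of 0.518 (0.291 to 0.919). The direction of the summed share is thus carried by Apln and Pgf.

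**Figure D2:**
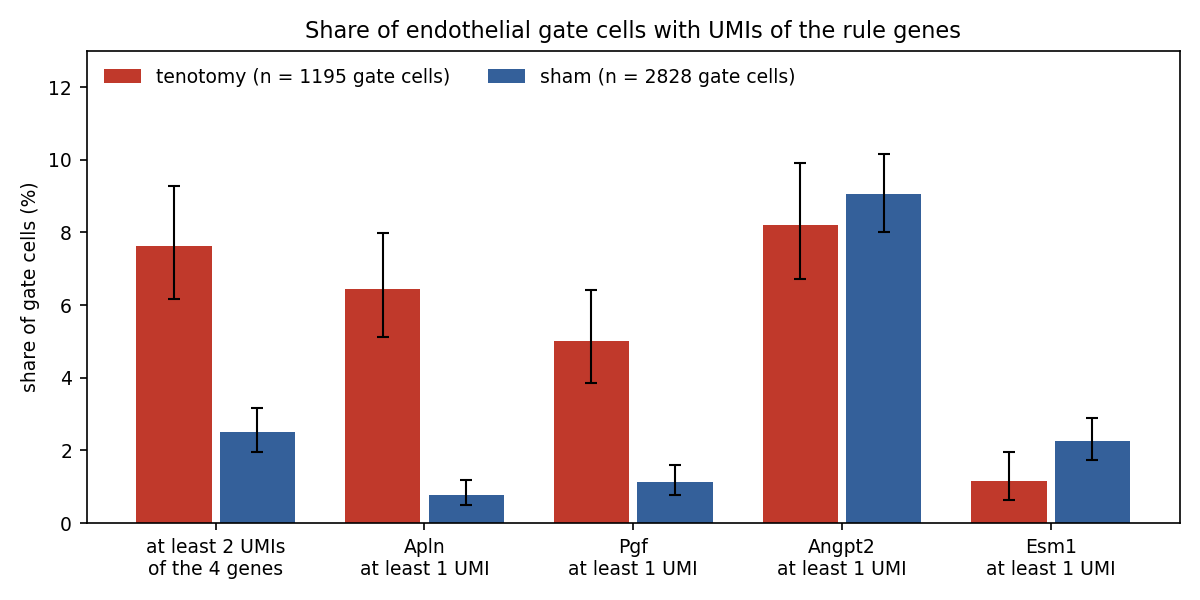
Share of gate cells (percent, with 95% Clopper-Pearson intervals) with at least 2 UMIs of the 4 genes and with at least 1 UMI of each gene, in the tenotomy (red, 1195 cells) and sham (blue, 2828 cells) libraries. The tenotomy bars stand above the sham bars for the sum, Apln and Pgf, at 7.62%, 6.44% and 5.02% against 2.51%, 0.778% and 1.13%; the intervals overlap for Angpt2.

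Over all filtered cells the share differed by less than its interval, at 0.810% in tenotomy and 0.918% in sham, a ratio of 0.883 (0.648 to 1.20). The gate itself held 10.6% of the tenotomy and 36.5% of the sham cells. Immune cells were set beside the gate, since free RNA can place UMIs in any droplet. Whether their UMIs of the 4 genes are free RNA or their own transcripts was not tested. Ptprc+ cells with 0 UMIs of the 5 endothelial genes reached 2 UMIs of the 4 genes in 1.59% of 4831 tenotomy cells (median 6227 UMIs) and 0.946% of 317 sham cells (median 7084 UMIs). Apln was seen in 0.393% of those tenotomy cells and in 0 of the sham cells, which allows a share of up to 0.946% (3 counts). The gate share of Apln stood above this value in the tenotomy library, whereas the sham share of 0.778% did not exceed that limit. The sham limit follows from the small number of 317 cells, so this comparison cannot place the sham share. Pgf was seen in 2.92% of those tenotomy cells and 2.21% of those sham cells, so the sham gate share of 1.13% did not exceed its counterpart in these deeper cells (the sham gate had a median of 3504 UMIs). By level, Pgf stood at 72.8 CPM in tenotomy and 10.3 CPM (8.54 to 12.4) in sham gate cells, and at 10.5 and 4.64 CPM (2.40 to 8.10) in the Ptprc+ cells. The Ptprc+ tenotomy cells held 362 Pgf UMIs in 141 cells, beside 59 Angpt2 UMIs in 55 cells. The Pgf share of these cells is therefore not given as a level of free RNA. A single sham Apln-type cell held 36 Pgf UMIs. Esm1 was seen in 0.186% of those tenotomy cells and 0 of those sham cells, and Angpt2 in 1.14% and 0.631%, all below the gate shares.

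The 4 genes were not particular to the gate. Arterial-type cells, left out by the rule, reached 2 UMIs in 14.9% of 201 tenotomy cells and 6.43% of 451 sham cells. In these cells Apln was seen in 20 tenotomy and 0 sham cells. Venous-type or activated cells carried Apln in 18 of 97 tenotomy and 1 of 72 sham cells. Outside the endothelium, Pdgfra+ cells had Pgf at 18.5 CPM in tenotomy and 91.0 CPM in sham, and cells with mural markers had Angpt2 at 4.40 CPM in tenotomy and 9.24 CPM in sham.

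Some Apln-type cells also carried transcripts of neighbouring cell types. At least 20 UMIs of any of 9 marker lists of other cells were found in 14 of 91 tenotomy and 16 of 71 sham cells, mostly mural markers (10 and 14 cells). Such marker-heavy cells were also 11.8% of the tenotomy and 10.4% of the sham set-negative cells. Levels are sums of UMIs, so a deep cell weighs more. One tenotomy cell held 49186 UMIs, 1706 of them mesenchymal. Without marker-heavy cells Apln stood at 773 CPM in tenotomy and 64.7 CPM in sham Apln-type cells, and Pgf at 596 and 327 CPM. Angpt2 then stood at 169 and 284 CPM, and Esm1 at 38.9 and 140 CPM. All 12 mural markers were detected, with a summed level of 1125 CPM in tenotomy and 3685 CPM in sham Apln-type cells, or 518 and 514 CPM once marker-heavy cells were left out. The 10 mesenchymal markers summed to 4106 CPM in tenotomy and 2624 CPM in sham cells, or 299.8 and 399 CPM without marker-heavy cells; Tnc was at 0 in the sham cells. Macrophage markers summed to 764 CPM in tenotomy and 359.5 CPM in sham cells, with Spp1 at 0 in sham, or 446 and 53.9 CPM without marker-heavy cells; 1 sham cell held 121 macrophage UMIs. No doublet caller was run, and the part of these transcripts in the gene differences was not tested beyond leaving such cells out. Where Apln-type cells are set against set-negative cells, each count over a list is followed by the count without marker-heavy cells.

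The endothelial genes of the rule are given as a description. Pecam1 stood at 962 CPM in tenotomy and 936 CPM in sham Apln-type cells, and Cdh5 at 888 and 1328 CPM. Kdr, the main VEGF receptor, stood at 403 CPM in tenotomy and 1139 CPM in sham Apln-type cells, and at 607 and 1129.5 CPM in set-negative cells. Apln-type and set-negative cells were gated on the same endothelial genes, so an endothelial identity of both is set by the rule. Outside the rule, the capillary and venous sialomucin Emcn stood at 411 CPM in Apln-type and 412 CPM in set-negative tenotomy cells, and at 539 and 521 CPM in the sham library. The TGF-beta co-receptor Eng stood at 527 and 563 CPM in tenotomy and at 424 and 406 CPM in sham cells. The junction protein Esam was 1.46-fold lower (1.31 to 1.62) in tenotomy Apln-type cells and 1.09-fold higher (0.973 to 1.21) in sham Apln-type cells. Of 11 measured junction genes, 0 differed by 2-fold in either library, with or without marker-heavy cells.

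In the tenotomy library, the capillary identity, fatty acid and flow lists were mostly lower in Apln-type than in set-negative cells, while some basement membrane genes, among them Col18a1, Lamb1 and Nid2, were higher. Of 3439 measured genes, 108 (3.14%) were 2-fold or more above the set-negative cells and 136 (3.95%) 2-fold or more below them, and the median log2 difference of all measured genes was 0.07. Without marker-heavy cells the counts were 133 (3.9%) higher and 147 (4.31%) lower of 3414. At the limit of the lists, 4.59% of 9222 genes were higher and 7.79% lower by 2-fold or more (median log2 difference 0.02), or 5.29% and 7.78% of 8090 without marker-heavy cells. A count of 1 gene in a list is near these shares and is given as a description.

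Prnd led the genes that were higher in both libraries. It encodes doppel, a membrane-anchored relative of the prion protein, and lies at chromosome 2, 131950861 to 131956130, plus strand. Prnd had 98.8 CPM in Apln-type cells (74 UMIs in 28 cells) and 11.2 CPM in set-negative cells of the tenotomy library, 8.83-fold higher (5.93 to 13.3). In the sham library it had 69.9 CPM (28 UMIs in 8 cells) and 2.50 CPM, 28.0-fold higher (15.7 to 50.5). Kit, the receptor of stem cell factor (chromosome 5, 75574916 to 75656722, plus strand), had 52.1 and 6.71 CPM in tenotomy, 7.75-fold higher (4.55 to 13.5), and 42.4 and 8.11 CPM in sham, 5.23-fold higher (2.90 to 8.92). The Kit UMIs were spread over 27 of 91 tenotomy and 12 of 71 sham cells. In sham, Kit lay under the limit of 50 CPM and was named by size only without marker-heavy cells. Both differences were as large or larger without marker-heavy cells: Prnd was 11.2-fold higher (7.04 to 18.2) in tenotomy and 31.6-fold higher (17.3 to 58.0) in sham, and Kit 8.31-fold higher (4.69 to 15.1) and 5.66-fold higher (3.02 to 9.96). Cells with exactly 1 UMI of the 4 genes lay between for Prnd, at 56.4 CPM in tenotomy and 16.0 CPM in sham.

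Among genes of the basement membrane, the collagen and laminin sheet beneath the endothelium, all 21 were measured in the tenotomy library. Of these, 4 were higher by 2-fold or more and 0 lower in Apln-type cells, with a median log2 difference of 0.54 against 0.02 for all genes at that limit. Without marker-heavy cells 4 of 20 were higher and 1 lower (median 0.35). Col18a1, whose product is the precursor of endostatin (chromosome 10, 77052178 to 77166548, minus strand), had 93.4 CPM in Apln-type and 21.3 CPM in set-negative cells, 4.39-fold higher (3.13 to 6.16), or 8.25-fold higher (5.24 to 13.1) without marker-heavy cells. Lamb1, the laminin beta 1 chain, was 2.48-fold higher (2.06 to 2.98), and Nid2, which joins laminin to collagen IV, was 2.12-fold higher (1.54 to 2.89). The fourth, the cross-linking enzyme Lox, was 2.65-fold higher but 1.10-fold lower without marker-heavy cells. The main collagen IV chains differed less, with Col4a1 at 2714 and 2047 CPM, 1.33-fold higher (1.26 to 1.39). The only gene of the list whose interval lay below 1 was the laminin chain Lamb2, 1.71-fold lower (1.22 to 2.46), or 2.66-fold lower without marker-heavy cells.

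In the sham library 2 of the 21 basement membrane genes were higher by 2-fold or more and 2 lower in Apln-type cells, with a median log2 difference of 0.13; without marker-heavy cells 1 of 18 was higher and 0 lower. Over all 10494 genes at this limit the shares were 6.33% and 5.81%, or 6.4% and 6.78% of 9544 without marker-heavy cells, so the list counts are near them. Nid2 was 3.64-fold higher (2.33 to 5.48), at 67.4 CPM in Apln-type and 18.5 CPM in set-negative cells. Col15a1, a collagen of the basement membrane zone, was 2.19-fold higher (1.55 to 3.02), or 1.98-fold higher without marker-heavy cells, and Col4a1 1.35-fold higher (1.24 to 1.47). Nid2 and Col4a1 thus differed in the same direction in both libraries, while Col18a1 had 2 UMIs, both in 1 cell, in sham Apln-type cells.

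The tip cell list was taken from genes known in sprouting retinal vessels and excludes the 4 genes of the rule. Of 23 measured members, 4 were higher by 2-fold or more and 1 lower in tenotomy Apln-type cells (median log2 difference 0.23), or 5 and 1 of 23 without marker-heavy cells. The 4 were Igfbp3, an IGF-binding protein, 2.78-fold higher (2.25 to 3.42); Lxn, a carboxypeptidase inhibitor, 2.29-fold higher (1.72 to 3.04); the chemokine receptor Cxcr4, 2.16-fold higher (1.48 to 3.12); and the intermediate filament protein Vim, 2.14-fold higher (2.07 to 2.22). Without marker-heavy cells Cxcr4 was 3.68-fold higher (2.28 to 5.89). The tip cell list summed to 9535 CPM in Apln-type and 6137 CPM in set-negative tenotomy cells. Arterial-type and venous-type tenotomy cells lay between, at 8767 and 7744 CPM. The list did not move as 1 block. The semaphorin and VEGF co-receptor Nrp1 was 1.87-fold lower (1.66 to 2.12), the netrin receptor Unc5b was 1.98-fold lower (1.14 to 3.71) and the Notch ligand Dll4 differed by less than its interval, 1.14-fold higher (0.879 to 1.46).

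In the sham library 0 of 23 measured tip cell genes were higher by 2-fold or more and 1, the calcitonin receptor-like co-receptor Ramp3, was lower, with a median log2 difference of 0.36. Without marker-heavy cells 2 of 23 were higher, Vim and Unc5b, and 2 lower. Vim was 1.91-fold higher (1.75 to 2.07), or 2.47-fold higher without those cells, and Unc5b 1.84-fold higher (1.26 to 2.60), or 2.32-fold higher. The adhesion molecule Mcam was 1.76-fold higher (1.24 to 2.43), Nrp1 1.13-fold higher (1.02 to 1.24), Nrp2 1.52-fold higher (1.26 to 1.83) and Dll4 1.48-fold higher (1.15 to 1.87). Unc5b and Nrp1 thus lay above the set-negative cells in sham and below them in tenotomy; this difference between libraries was not tested.

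Proteases and their inhibitors were mixed. Of 13 measured genes, 5 were higher by 2-fold or more and 1 lower in tenotomy Apln-type cells, or 2 and 2 of 12 without marker-heavy cells. The urokinase gene Plau was 2.13-fold higher (1.13 to 3.87) and the membrane collagenase Mmp14 2.02-fold higher (1.51 to 2.68). The gelatinase gene Mmp2 was 3.78-fold higher, or 1.97-fold higher without marker-heavy cells. The inhibitors Timp1 and Timp2 were 2.40-fold higher and 2.01-fold higher, or 1.16-fold higher and 1.89-fold higher without them, and 1 cell held 80.4% of the Timp1 UMIs. Timp3, a matrix-bound inhibitor, was the lower one, 2.57-fold lower (2.21 to 3.01). In sham Apln-type cells Mmp14 and Plau were the 2 of 13 genes higher by 2-fold or more, 2.76-fold higher (1.43 to 4.92) and 2.90-fold higher (1.54 to 5.06), on 13 and 14 UMIs, and 1 gene, Timp1, was lower on 1 UMI. Without marker-heavy cells 0 of 11 were higher and 1 lower; Plau was 1.54-fold higher, and Mmp14, with 4 UMIs in Apln-type and 16 in set-negative cells, no longer reached the limit.

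Further genes named by size were higher in tenotomy Apln-type cells. Among them were AA467197 (423 and 75.5 CPM), 5.60-fold higher (4.75 to 6.61); Ddah1, which breaks down an inhibitor of nitric oxide synthase, 4.50-fold higher (3.18 to 6.38); and the actin-binding protein Tagln, 4.06-fold higher (3.38 to 4.87). Tagln is also a mural marker; it was 4.70-fold higher (3.54 to 6.24) without marker-heavy cells. Others of the same rank lay in very few cells. Actc1, Fmod, Myog, Abi3bp and Cxcl5 had from 92.6% to 98.6% of their UMIs in 1 cell, and of these Abi3bp and Cxcl5 were below 1 without marker-heavy cells. Thbs4 and Msc lay in 10 and 3 cells, and were 1.21-fold lower and 1.56-fold lower (0.473 to 8.08) without marker-heavy cells.

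Genes of resting capillaries were lower in Apln-type than in set-negative tenotomy cells. Of 12 measured capillary identity genes 0 were higher by 2-fold or more and 7 lower, with a median log2 difference of -1.11 and a summed level of 6690 CPM against 12062 CPM in set-negative cells. The arterial-type and venous-type tenotomy cells left out by the rule had summed levels of 7414 and 6640 CPM. The low sum was thus not particular to Apln-type cells. Without marker-heavy cells 8 of 12 were lower and 0 higher. Timp4, a metalloproteinase inhibitor of muscle capillaries (chromosome 6, 115241892 to 115252205, minus strand), had 104 CPM in Apln-type and 450.5 CPM in set-negative cells, 4.33-fold lower (3.45 to 5.50). The carbonic anhydrase Car4 had 24.0 and 90.4 CPM, 3.76-fold lower (2.34 to 6.43), and the water channel Aqp1 1639 and 4026 CPM, 2.46-fold lower (2.32 to 2.61). Ly6c1 was 2.10-fold lower, although its reads can be split with its near copy Ly6c2. The chemokine Cxcl12, 1.06-fold higher (0.987 to 1.14), and Ramp2, 1.03-fold lower (0.927 to 1.16), stayed level, so the list was not lower throughout.

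Genes of fatty acid uptake followed the same direction, with 0 of 12 measured genes higher by 2-fold or more and 8 lower (median log2 difference -1.14, summed level 12529 CPM against 25368 CPM). Arterial-type and venous-type tenotomy cells lay between, with summed levels of 17308 and 14862 CPM. Lpl, lipoprotein lipase (chromosome 8, 68880491 to 68907448, plus strand), had 136 CPM in Apln-type and 603 CPM in set-negative cells, 4.43-fold lower (3.63 to 5.46). The fatty acid transporter Cd36 was 2.63-fold lower (2.38 to 2.91), the intracellular carrier Fabp4 2.15-fold lower (2.09 to 2.21) and the transcription factor Tcf15, which with Meox2 turns on fatty acid transport genes, 2.64-fold lower (2.12 to 3.34). Meox2 itself differed by less than its interval, 1.11-fold lower (0.889 to 1.41). Without marker-heavy cells 7 of 12 fatty acid genes were lower and 0 higher, and the median log2 differences were -1.06 for capillary identity and -1.12 for fatty acid uptake.

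The genes tied to blood flow and quiescence included 5 lower by 2-fold or more and 0 higher of 11 measured (median log2 difference -0.86), or 6 and 0 of 11 without marker-heavy cells (-1.30). Klf2 and Klf4, transcription factors kept up by flow, were 2.86-fold lower (2.51 to 3.27) and 2.71-fold lower (2.37 to 3.11), with Klf2 at 329.7 and 943 CPM. Thrombomodulin, Thbd, an anticoagulant of the endothelial surface, was 3.06-fold lower (2.41 to 3.93). Nos3, the endothelial nitric oxide synthase, was 1.34-fold higher (1.06 to 1.67). Immediate early genes, which respond within minutes to stimulation, lay the same way: 6 of 15 were lower by 2-fold or more and 0 higher, or 4 and 0 of 15 without marker-heavy cells, among them Egr1, 2.67-fold lower (2.33 to 3.07), and Zfp36, 2.92-fold lower (2.48 to 3.47).

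**Figure D3:**
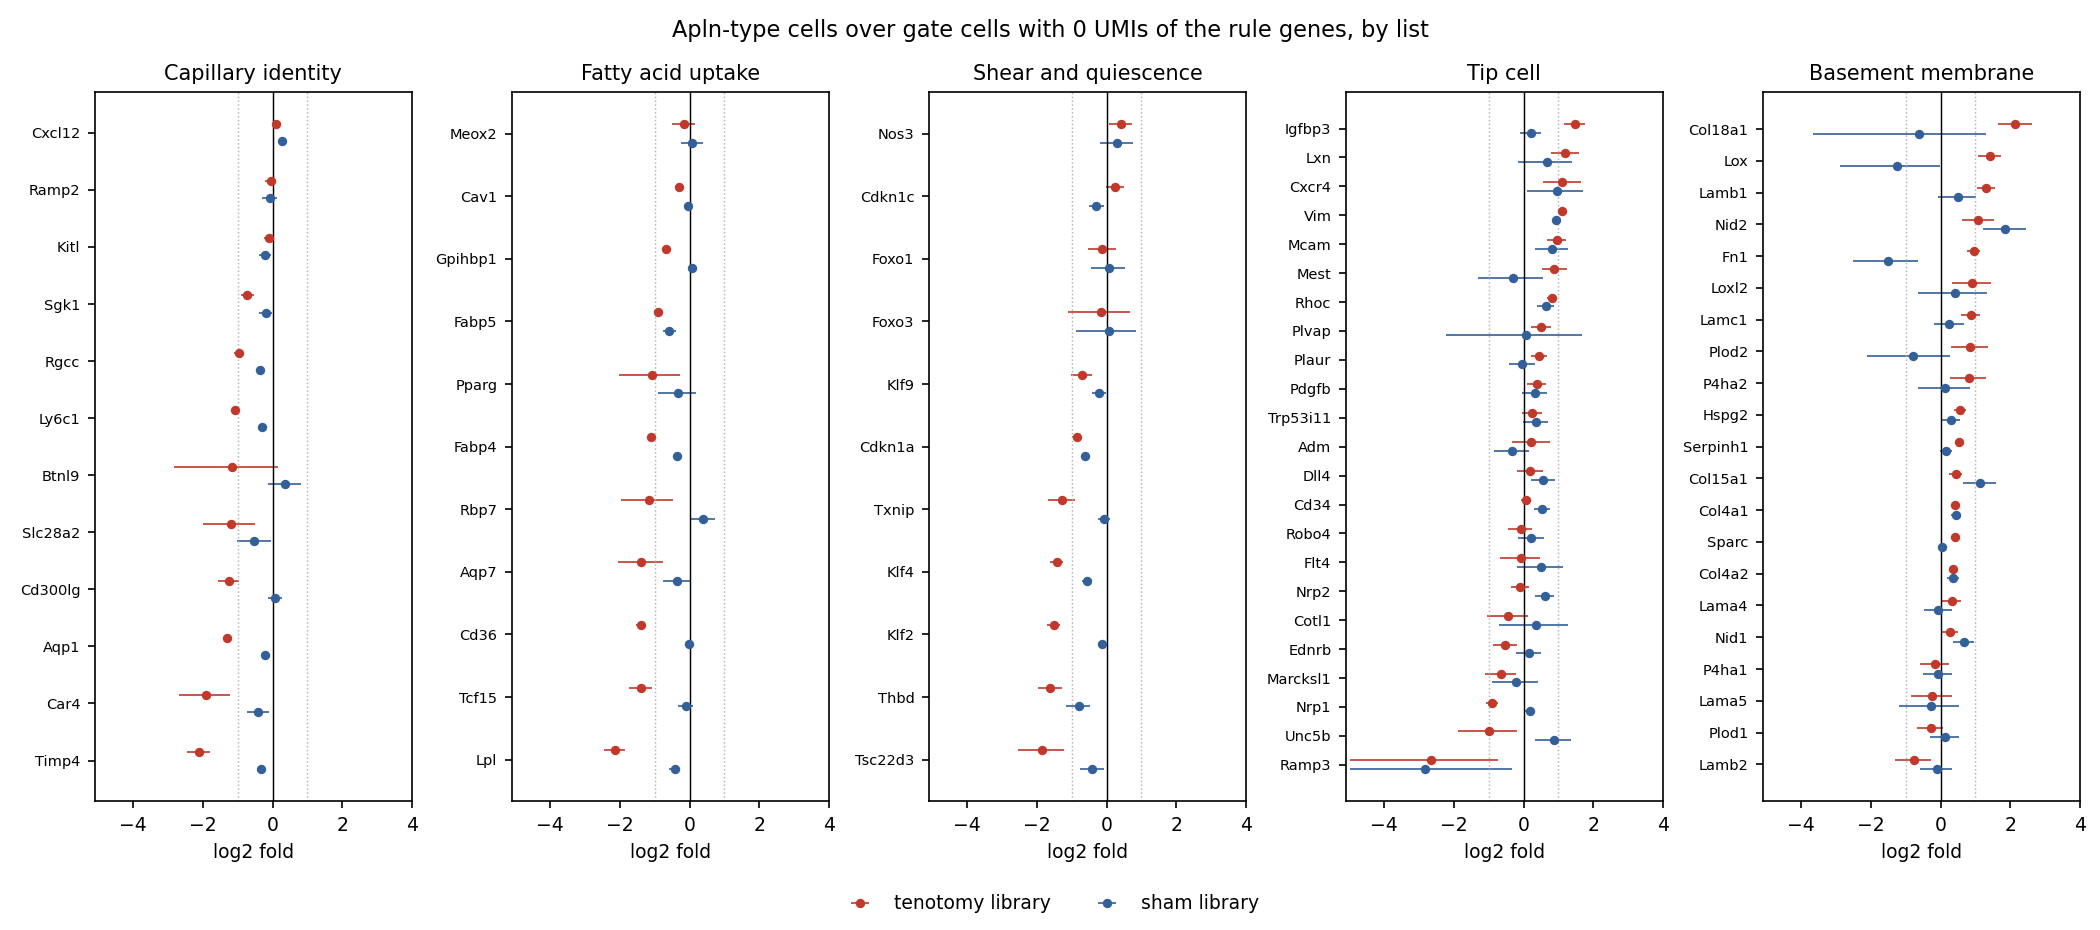
Log2 difference between Apln-type and set-negative cells for each gene of 5 lists (points, with 95% counting intervals cut at -5; red tenotomy, blue sham; dotted lines mark 2-fold). In tenotomy the capillary identity, fatty acid and flow lists lie mostly below 0, with medians of -1.11, -1.14 and -0.86, while the sham medians are -0.21, -0.11 and -0.22; only genes with UMIs in both libraries are drawn.

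In the sham library the same 3 lists lay slightly below the set-negative cells by their medians, with no gene past 2-fold. Of 12 capillary identity genes 0 differed by 2-fold (median log2 difference -0.21), and Timp4 had 1790.2 CPM in Apln-type and 2235 CPM in set-negative cells, 1.25-fold lower (1.16 to 1.35). Of 12 measured fatty acid genes 0 differed by 2-fold (median -0.11), with Lpl 1.34-fold lower (1.22 to 1.49) and Cd36 1.02-fold lower (0.953 to 1.09). Of 11 flow genes 0 differed by 2-fold (median -0.22), with Klf2 1.10-fold lower (1.03 to 1.18) and Thbd 1.74-fold lower (1.38 to 2.23). Without marker-heavy cells 0 of 12, 0 of 11 and 0 of 11 differed by 2-fold. With all cells, intervals lay below 1 for 8 capillary identity, 3 fatty acid and 7 flow genes. They lay above 1 for 1, 1 and 0. Immediate early genes lay the same way in sham. Of 15, 0 differed by 2-fold, with intervals below 1 for 11 and above 1 for 1 (median -0.23).

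Interferon-induced genes were lower or level in the tenotomy library. Of 12 type I interferon genes 3 were lower by 2-fold or more and 0 higher in tenotomy Apln-type cells, with Ifit1 4.66-fold lower (3.27 to 6.86) and the ubiquitin-like Isg15 2.43-fold lower (1.94 to 3.07). Of 18 genes of class II presentation and interferon gamma 3 were lower and 0 higher: the transcription factor Irf1, 2.91-fold lower (2.36 to 3.62), and the chemokines Cxcl9, 2.59-fold lower (1.71 to 4.11), and Cxcl10, 2.91-fold lower (2.20 to 3.92). Without marker-heavy cells 3 of 12 and 3 of 18 were lower and 0 higher. Among sham cells 1 of the 18 was higher by 2-fold or more, Cd74, the class II invariant chain, 2.13-fold higher (1.55 to 2.86), and 0 lower. Without marker-heavy cells 4 of 18 were higher, Cd74, 6.49-fold higher, with H2-Aa, H2-Ab1 and H2-Eb1, and 1 lower. A single cell held 87.5% of the Cd74 UMIs, and from 66.7% to 91.7% of those of the 3 H2 genes lay in 1 cell each. Of the 12 type I interferon genes 0 were higher and 1 lower in sham, or 0 and 2 without marker-heavy cells. Among genes named by size, the GTPase Iigp1 was 3.11-fold lower (2.77 to 3.51) and Slfn5, a gene of the schlafen family, stood at 304 and 943 CPM. The flavin monooxygenases Fmo1 and Fmo2 were 4.44-fold lower and 4.00-fold lower. The remaining genes of this rank were neutrophil genes and Spp1. All 7 measured neutrophil markers were lower by 2-fold or more, with a summed level of 104 CPM in Apln-type and 1163 CPM in set-negative tenotomy cells; Elane and Mpo were at 0 in the Apln-type cells. Without marker-heavy cells 1 of 5 was lower, with summed levels of 85.6 and 154 CPM. S100a8 was 9.87-fold lower, or 1.47-fold lower without marker-heavy cells. Erythroid markers summed to 64.1 CPM in Apln-type and 3361 CPM in set-negative cells, or 64.2 and 57.2 CPM without marker-heavy cells, and 9 of 1000 set-negative cells held at least 20 erythroid UMIs.

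Receptors and some ligands of the VEGF and Tie systems were modestly lower by their median. Of 15 measured genes 0 were higher by 2-fold or more and 2 lower in tenotomy Apln-type cells (median log2 difference -0.60), or 0 and 3 of 14 without marker-heavy cells. The lymphatic growth factor Vegfc was 2.79-fold lower (0.89 to 14.1) on 3 UMIs, or 5.45-fold lower (0.902 to 223) on 1 UMI without marker-heavy cells. The apelin receptor Aplnr had 48.1 CPM in Apln-type and 121 CPM in set-negative cells, 2.52-fold lower (1.79 to 3.64). Flt1, the receptor of Pgf, had 950.4 and 1775 CPM, 1.87-fold lower (1.73 to 2.02), and Tek, the receptor of Angpt2, 101 and 163 CPM, 1.60-fold lower (1.26 to 2.06). The semaphorin receptor Plxnd1 was 1.43-fold higher (1.18 to 1.73). Of the 15 genes, intervals lay below 1 for 7 and above 1 for 1. In sham cells Aplnr was at 27.5 and 42.3 CPM, with 11 UMIs in Apln-type cells, and Flt1 was 1.19-fold lower (1.12 to 1.28). Among 11 measured Notch genes 2 were lower in tenotomy, the ligand Dll1, 3.26-fold lower (1.53 to 8.31), and the target Hes1, 2.17-fold lower (1.63 to 2.96); without marker-heavy cells 1 of 11 was lower, and Hes1 was 1.81-fold lower.

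Growth factor signals of the BMP and TGF-beta family were mixed, with 1 of 15 measured genes higher by 2-fold or more and 3 lower in tenotomy Apln-type cells, or 1 and 3 of 15 without marker-heavy cells. Inhbb, the activin beta B chain, was 2.66-fold higher (1.83 to 3.81). Among genes named by size without marker-heavy cells, the ligand Bmp2 was 4.97-fold higher (2.91 to 8.49). The BMP targets Id1 and Id2, which hold back differentiation factors, were 2.26-fold lower (1.97 to 2.60) and 2.19-fold lower (1.54 to 3.22), and the ligand Bmp6 was 2.85-fold lower (1.59 to 5.62). In the sham library 0 of 14 differed by 2-fold, with or without marker-heavy cells, and Id1 was 1.20-fold lower (1.06 to 1.36).

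Of the arterial and venous genes that the rule did not use, most were lower in tenotomy Apln-type than in set-negative cells, with intervals below 1 for 9 of 11 and 6 of 10 and above 1 for 1 of each list. Of 11 measured arterial genes 0 were higher by 2-fold or more and 4 lower, led by the phosphatase Alpl, 19.1-fold lower (3.34 to 762), and the connexin Gja4, 17.2-fold lower (3.00 to 687), each with 1 UMI in the Apln-type cells; without marker-heavy cells 1 of 11, the elastin gene Eln, was higher, 4 were lower, and Gja4 was 4.87-fold lower (0.797 to 199.9). Of 10 venous genes 1 was higher, the adhesion molecule Vcam1, 2.20-fold higher (1.62 to 2.97), and 5 were lower. Without marker-heavy cells Vcam1 was 1.01-fold lower (0.537 to 2.05), and 0 of 10 venous genes were higher and 5 lower. Of 19 genes of actin and cell migration 0 were past 2-fold in either library, with median log2 differences of 0.38 in tenotomy and 0.22 in sham. Without marker-heavy cells 3 of 19 were higher in tenotomy, Anxa1, Anxa2 and Myl9 (median 0.51), and 0 of 19 in sham. Annexin A2, Anxa2, was 1.85-fold higher (1.70 to 2.01), or 2.06-fold higher without marker-heavy cells, and profilin, Pfn1, 1.77-fold higher (1.62 to 1.93) in tenotomy.

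Transcripts of dividing cells were more frequent in Apln-type than in set-negative cells of the tenotomy library. At least 2 UMIs over 12 cycle genes were found in 23.1% (14.9 to 33.1) of Apln-type and 7.70% (6.12 to 9.53) of set-negative tenotomy cells. In the sham library the shares were 2.82% (0.343 to 9.81) and 1.21% (0.819 to 1.72). At the fixed depth of 2000 UMIs the expected shares were 8.54% of Apln-type and 3.97% of set-negative tenotomy cells, and 0.474% and 0.346% of sham cells. At that depth they were 10.0% of arterial-type, 15.5% of venous-type and 7.13% of 1-UMI gate cells in tenotomy. The trait was thus not particular to Apln-type cells. Without marker-heavy cells the shares were 18.2% (10.3 to 28.6) of Apln-type and 5.33% (3.94 to 7.02) of set-negative tenotomy cells. By level, 2 of 24 measured cycle genes were higher by 2-fold or more and 1 lower (median log2 difference 0.60). Without marker-heavy cells 11 of 21 were higher and 0 lower (median 1.04), among them the replication factor Pclaf, 4.14-fold higher, and Top2a, a topoisomerase of dividing cells, 2.52-fold higher, which were 1.67-fold higher and 1.15-fold higher with all cells. The highest counts of the 12 cycle genes in the remaining Apln-type cells were 56, 38, 13, 11 and 10 UMIs. Only 14 of these 77 cells held at least 2, so these levels lean on few cells. Mki67, a marker of dividing cells, was 2.01-fold higher (1.29 to 3.07), with 32 UMIs in 8 cells, or 6.71-fold higher without marker-heavy cells, and the replication helicase gene Mcm5 2.03-fold higher (1.29 to 3.12). Ribosome biogenesis had 3 of 17 genes higher by 2-fold or more and 0 lower (median log2 difference 0.66), or 3 and 0 of 16 without marker-heavy cells, with the small nucleolar ribonucleoprotein Nhp2 2.12-fold higher (1.71 to 2.61) and the nucleolar protein Npm1 1.48-fold higher (1.36 to 1.60). In glycolysis 1 of 20 was higher, Pgk1, 2.07-fold higher (1.79 to 2.39), and 1, the pyruvate dehydrogenase kinase Pdk1, was 2.79-fold lower (1.23 to 7.84), on 6 UMIs; without marker-heavy cells 3 of 19 were higher and 1 lower. Of 24 genes of the respiratory chain 0 differed by 2-fold (median log2 difference 0.20), or 1 was higher without marker-heavy cells.

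Sham Apln-type cells differed from sham set-negative cells at few genes, 53 (1.55%) higher by 2-fold or more and 40 (1.17%) lower. Without marker-heavy cells these were 49 (1.41%) and 47 (1.35%) of 3480. Beside Prnd and Nid2, several of the genes ranked highest lay in few cells: Fst and F13a1 had all their UMIs in 1 cell, and Gsn had 86.4% and Fgl2 98.5% in 1 cell. Gsn and Fgl2 were below 1 without marker-heavy cells. The chemokine Ccl2, 4.26-fold higher (3.22 to 5.56), had 60.0% of its UMIs in 1 cell and was 4.91-fold higher (2.70 to 8.42) without marker-heavy cells. The potassium channel gene Kcnj8, a mural marker, was 3.04-fold higher, or 1.69-fold higher (0.197 to 6.62) without them. Of 12 measured mural markers 3 were higher by 2-fold or more and 0 lower in these cells, or 2 and 2 of 9 without marker-heavy cells. Among lower genes spread over several cells, the amino acid transporter Slc6a6 was 2.50-fold lower (1.76 to 3.66) and the TGF-beta docking protein Lrrc32 3.60-fold lower (1.89 to 7.90), or 5.79-fold lower without marker-heavy cells.

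Set beside each other, tenotomy and sham Apln-type cells were measured at 3768 genes, 479 (12.7%) of which were higher and 551 (14.6%) lower by 2-fold or more in tenotomy. Without marker-heavy cells these were 426 (11.4%) and 470 (12.6%) of 3733. For set-negative cells the counts were 179 (5.22%) and 161 (4.7%) of 3428. The Apln-type groups held 749152 and 400522 UMIs and the set-negative groups 3574177 and 9616601, so these counts rest on unequal depth and are not compared. The genes below are given beside their values in the set-negative cells.

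Plvap, which forms the diaphragms of endothelial fenestrae, had 188 CPM in tenotomy and 7.49 CPM in sham Apln-type cells, 25.1-fold higher (8.42 to 123), and 133 and 7.07 CPM in set-negative cells, 18.8-fold higher (14.5 to 24.6). The secreted glycoprotein Lrg1 had 174 CPM in tenotomy Apln-type cells and 0 UMIs in sham. Against the floor of 3 counts it was 23.2-fold higher (lower bound 18.6). In set-negative cells Lrg1 was 31.4-fold higher (23.9 to 42.0). The cytokine Il6 was 21.3-fold higher (8.97 to 66.3), and 14.2-fold higher (12.5 to 16.2) in set-negative cells. These 3 genes therefore differed between the libraries across the gate. Without marker-heavy cells Plvap was 55.3-fold higher (9.70 to 2204) and Il6 43.3-fold higher (11.8 to 361) in Apln-type cells, and Il6 25-fold higher in set-negative cells. AA467197 was 28.2-fold higher (12.8 to 77.6), and 19.6-fold higher (13.9 to 28.5) in set-negative cells.

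Other differences were larger in the Apln-type cells. Col18a1 was 18.7-fold higher (4.99 to 158), with 2 UMIs in sham, against 2.80-fold higher in set-negative cells, or 6.08-fold higher there without marker-heavy cells. The glycolytic enzyme Pgk1 was 9.39-fold higher (5.68 to 16.7) and 2.51-fold higher (2.25 to 2.80). Timp4 was 17.2-fold lower (13.6 to 22.0) in Apln-type and 4.96-fold lower (4.72 to 5.22) in set-negative cells, Lpl 7.21-fold lower (5.78 to 9.05) and 2.19-fold lower (2.09 to 2.29), and Klf2 6.32-fold lower (5.48 to 7.32) and 2.44-fold lower (2.35 to 2.53). For Pgk1, Timp4, Lpl and Klf2 the intervals of Apln-type and set-negative cells did not overlap; the difference between them was not tested across samples. Cyp26b1, which breaks down retinoic acid, had 2 UMIs in tenotomy and 42 UMIs in sham Apln-type cells, 39.3-fold lower (10.2 to 335), and was 5.45-fold lower (4.21 to 7.17) in set-negative cells. Timp3 was 8.27-fold lower (7.02 to 9.78) against 2.66-fold lower (2.54 to 2.78).

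By list, the shares over all genes at the limit of the lists were 12.6% higher and 12.1% lower for Apln-type cells (5760 genes), and 6.96% and 7.94% for set-negative cells (11515 genes). The list counts of both kinds of cell stand on these unequal shares and depths and are not compared. Capillary identity had 7 of 12 genes lower by 2-fold or more in tenotomy than in sham Apln-type cells and 0 higher (median log2 difference -1.51), and 4 and 0 of 12 in set-negative cells (-0.61). Fatty acid uptake had 7 of 11 lower in Apln-type (-2.09) and 4 of 13 in set-negative cells (-0.71). Immediate early genes had 13 of 15 lower in Apln-type (-1.75) and 9 of 15 in set-negative cells (-1.08). Basement membrane genes had 8 of 21 higher and 1 lower in Apln-type (0.78), and 6 and 0 of 21 in set-negative cells (0.50). Ribosome biogenesis had 9 of 15 higher in Apln-type (1.19) and 3 of 17 in set-negative cells (0.57). Without marker-heavy cells the counts in Apln-type cells were 7 of 12, 6 of 11 and 13 of 15 lower, and 6 of 18 and 6 of 13 higher, beside shares of 11.7% higher and 10.5% lower over 4466 genes. The median over all genes at this limit was 0.03 for Apln-type and -0.05 for set-negative cells. Several of the genes ranked highest rest on marker-heavy cells. Postn was 197-fold higher (35.2 to 7813), or 2.71-fold higher against the floor without them. Thbs4 was 167-fold higher (29.8 to 6630.4), or 2.71-fold higher (0.303 to 128) without them. Timp1 was 117-fold higher (20.8 to 4645), or 3.79-fold higher against the floor without them. Fn1 was 15.5-fold higher, or 5.96-fold higher without them. In set-negative cells Postn was 9.58-fold higher, Thbs4 2.08-fold lower, Timp1 17.7-fold higher and Fn1 2.83-fold higher. Mural genes such as Kcnj8, 20.4-fold lower in Apln-type and 1.75-fold lower in set-negative cells, were lower in tenotomy, beside mural sums of 1125 CPM in tenotomy and 3685 CPM in sham. Without marker-heavy cells Kcnj8 had 1 UMI in tenotomy and 2 UMIs in sham Apln-type cells.

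**Figure D4:**
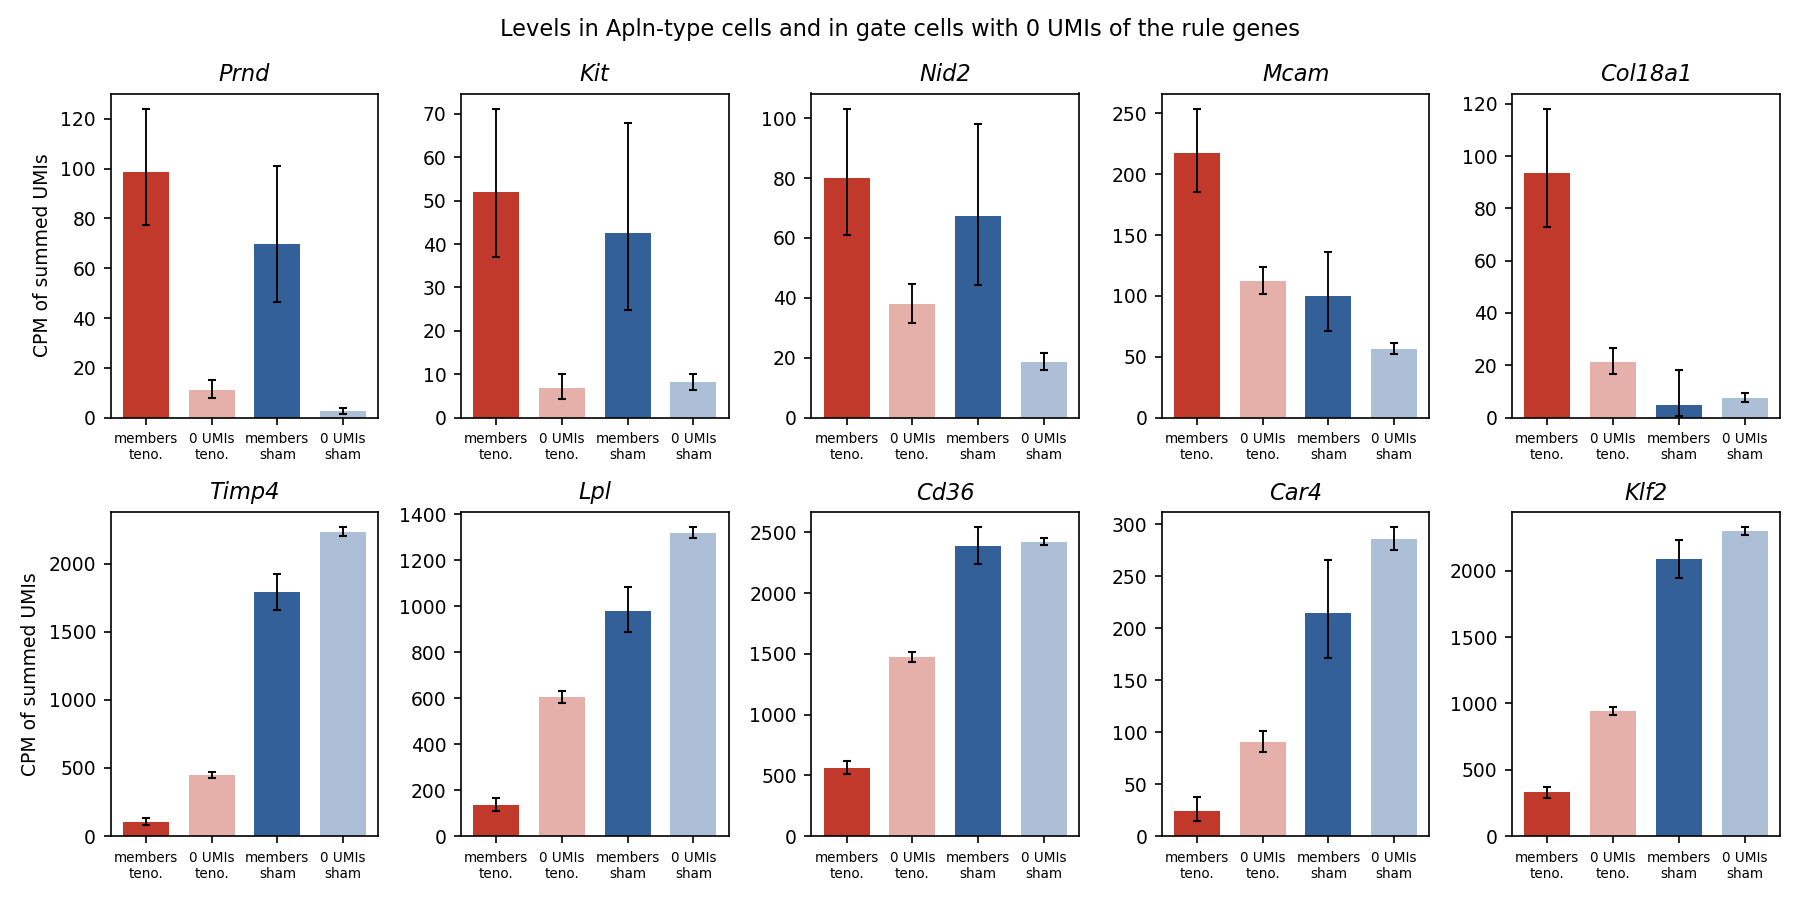
Level (CPM, with 95% Poisson intervals) of 10 genes in Apln-type (members) and set-negative (0 UMIs) cells of the tenotomy library and then of the sham library; the 10 genes were chosen after their values were seen. Prnd and Kit stand higher in Apln-type than in set-negative cells of both libraries, and Timp4, Lpl, Cd36, Car4 and Klf2 are lowest in the tenotomy Apln-type cells, at 104, 136, 559, 24.0 and 329.7 CPM.

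Within the tenotomy library, the 54 Apln-type cells with Apln and the 37 without it were set beside each other. Of 3493 measured genes 172 (4.92%) were higher by 2-fold or more and 145 (4.15%) lower in the cells with Apln; at the limit of the lists the shares were 5.65% and 3.34% of 4336. Prnd had 96.8 CPM in cells with Apln and 104 CPM in cells without, and Kit 55.0 and 45 CPM, neither beyond their counting intervals. Of 21 measured tip cell genes 0 differed by 2-fold. Timp4 was lower in the cells with Apln, at 64.5 CPM against 198 CPM, 3.07-fold lower (1.92 to 4.95). Ddah1 was higher, at 114 CPM against 31.5 CPM, 3.61-fold higher (1.65 to 9.37). Of 9 measured capillary identity genes 0 were higher by 2-fold or more and 2 lower (median log2 difference -0.46). Marker-heavy cells were kept on both sides, and their part in these values was not tested. Mesenchymal markers summed to 4641 CPM in cells with Apln and 2836 CPM in cells without, and mural markers to 1004 and 1414 CPM.

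Cells with exactly 1 UMI of the 4 genes lay between the other groups for 3 genes of resting capillaries. Timp4 had 104 CPM in Apln-type cells, 233 CPM in 1-UMI cells and 450.5 CPM in set-negative cells, and Lpl 136, 362 and 603 CPM. Klf2 had 329.7, 574 and 943 CPM. In sham the same 3 genes had 1790.2, 2066 and 2235 CPM, 981, 1129 and 1319.7 CPM, and 2085, 2126 and 2296 CPM. Kit in tenotomy was 3.89 CPM in 1-UMI cells, below both other groups. Marker-heavy cells were 22.1% of the tenotomy and 15% of the sham 1-UMI cells. They are included here, and their part in these levels was not tested.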

How the data were processed

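Living Calcein AM+ PI- cells of pooled plantaris muscles were sequenced as 1 10x Chromium 3' library per group. The deposited values are counts of UMIs per gene and cell. The submitters' processing notes name Cell Ranger 4.0.0 and the mm10 genome; no counting option or annotation is named there. The authors' files hold barcodes with at least 500 UMIs, which was checked on the files. Symbols were matched by gene ID for 32158 of 32285 genes, and coordinates come from GENCODE M21 (GRCm38) for 32235.

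Cells with at least 500 UMIs, at least 300 genes and at most 10% mitochondrial UMIs were kept. UMIs were summed per group of cells and divided by the group's total. Level intervals are exact Poisson, share intervals exact Clopper-Pearson, fold intervals exact conditional binomial, and a group at 0 was set to 3 counts. A gene with that floor past the other group's level has no fold. All intervals leave out the variation between animals, since each library is 1 pool. Of the genes of a list, and of all genes set beside them, those with at least 25 UMIs over both groups were measured; rule genes were left out of every list and count. No doublet caller was run and there was no test across samples. The folds and intervals were tested on simulated data. Python 3.11.15, NumPy 2.4.6, SciPy 1.17.1, pandas 2.3.3 and Matplotlib 3.10.9 were used.

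Genes were named, up to 15 in each direction of a comparison, by the interval bound nearest to 1 among measured genes at least 2-fold apart; rule genes, mitochondrial, ribosomal protein, unnamed model, myofibre, erythroid and antigen receptor genes were left out of that ranking. List genes with textbook roles were named besides. The members and the lists were chosen with earlier results of these data known. The exclusion of cells with at least 20 UMIs of another cell type, the shares over all genes at the limit of the lists, and the expected share over all draws at 2000 UMIs, were chosen after the data were seen. Other limits on the 4 genes, thinned counts, means over cells, no limit on level, and leaving out cells with cycle transcripts were tried as alternatives. A few genes that met the naming rule are not reported here.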

Additional observations from a re-analysis of the deposited data

Results flagged for a closer look

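For 8 genes the difference between Apln-type and set-negative cells ran in opposite directions in the 2 libraries by at least 2-fold each way. With 1 library per group this difference between libraries was not tested. The ratio of Apln-type to set-negative level was 6.49 in tenotomy and 0.268 in sham for Abi3bp, 2.49 and 0.165 for Col1a1, 2.46 and 0.226 for Col1a2, and 7.34 and 0.00832 for Fmod. It was 3.33 in tenotomy and 0.252 in sham for Gpx3, 4.94 and 0.0142 for Thbs4, 0.261 and 3.04 for Kcnj8, and 0.399 and 2.67 for Vtn. Most of these are matrix genes of mesenchymal or tendon cells, and Kcnj8 and Vtn are known in mural cells.

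Without cells holding at least 20 UMIs of another cell type, the ratios were 0.733 in tenotomy and 1.14 in sham for Abi3bp, 0.712 and 1.28 for Col1a1, 0.597 and 0.354 for Col1a2, and 1.03 and 0.209 for Fmod. They were 1.26 in tenotomy and 0.104 in sham for Gpx3, 0.828 and 0.314 for Thbs4, 0.467 and 1.69 for Kcnj8, and 1.28 and 0.998 for Vtn. In 0 of the 8 did both libraries then stay past 2-fold in opposite directions.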

How the results depend on the processing

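The share of Apln-type cells in the gate, 3.03 times as high in tenotomy as in sham, stayed above 1 in each alternative run, from 1.31 to 6.09. The ratio was 4.76 for the expectation at 2000 UMIs per cell (single draws, of 50 made, gave 3.73 to 6.46), 1.31 with a limit of 1 UMI, 4.58 with a limit of 3, 2.15 without Apln among the 4 genes, 6.09 without Angpt2, and 1.96 without cells holding at least 3 UMIs of the mural, myogenic, glial or macrophage markers. The expectation over draws was chosen after single draws were seen to differ.

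Counts of genes past 2-fold depended on depth and limits. Given as higher and lower, they were 207 and 212 in tenotomy, 209 and 115 in sham, and 251 and 242 for tenotomy against sham Apln-type cells, in 1 thinned draw. With no limit on level and at least 10 UMIs they were 734 and 1072, 1098 and 610, and 1215 and 1264, and 1161 and 1266 for set-negative cells. A limit of 3 UMIs of the 4 genes gave 181 and 212 in tenotomy and 209 and 147 in sham. Leaving out cells with at least 3 UMIs of those 4 lists gave 324 and 326 in tenotomy, 106 and 78 in sham, and 294 and 331 between them; fewer cells and UMIs enter each of these.

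Of 647 values of named genes under the alternatives, 442 stayed within their interval, 183 moved in the same direction and 22 changed direction. In tenotomy these were Cxcl5 at 0.606 of the set-negative level when thinned; Cxcl5 at 0.165, Msc at 0.664 and Prtn3 at 2.14 without cycling cells; and Abi3bp at 0.733, Cxcl5 at 0.395, Msc at 0.642, Thbs4 at 0.828 and Prtn3 at 2.05 without cells of at least 20 UMIs of another type. In sham these were Abi3bp at 1.07 when thinned and Retnla at 0.893 as a mean over cells; Abca8a at 0.682, Col1a1 at 1.03, Fgl2 at 0.602, Gsn at 0.687 and Thbs1 at 0.658 with that limit of 3 UMIs; and Abi3bp at 1.14, Col1a1 at 1.28, Fgl2 at 0.282, Gsn at 0.879, Retnla at 0.964 and Vtn at 0.998 with the limit of 20. The cause was not tested. No paired analysis was possible because each group is 1 pooled library.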
